A study of Homo sapiens with 6 samples.

Results

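Distal 19q13.4, the last stretch of the long arm of human chromosome 19, was examined for sites of the RNA-binding protein HuR in HEK293 cells. The region was taken as chr19:52300001-59128983 on hg19, which is 6.83 Mb, and a site belonged to it when it lay wholly inside on either strand. It held 1030 of 186157 sites in HuR replicate 1, 1737 of 405048 in replicate 2 and 2361 of 550681 in replicate 3. The combined list of the 3 replicates held 2826 of its 658853 sites there. The authors' combined list at p 0.05, whose intervals are not simply a subset of those, held 1699 of 373845. No site crossed the border in any of the 5 lists. Position alone set which sites belonged, and not their number, width, score or recurrence. The region itself was chosen with earlier results of these data known.

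HEK293 is an established human embryonic kidney line. In DO-RIP-seq, cell lysate was digested with micrococcal nuclease and RNA fragments were pulled down with mouse anti-HuR antibodies (3 samples) or with normal mouse serum as a negative control (3 samples), with no treatment of the cells named in the labels. The deposited lists hold 1 set of sites per HuR sample, each site being an interval of 1 strand with the authors' LOD score above 0, and values for the serum samples were not analysed here. The labels describe digested lysates that were pooled before being divided over the immunoprecipitations, so an SD over the 3 replicates may cover technical spread only. Read depth is unknown. The lists differ in length, and the scale of the LOD score is not stated in the labels, so a replicate's scores are given as percentiles within its own list.

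HuR, encoded by ELAVL1, binds U-rich and AU-rich stretches in introns and 3′ untranslated regions and is known for stabilising its mRNA targets. Distal 19q13.4 is known for tandem clusters of KRAB zinc finger genes. Proteins of this family bind DNA through arrays of C2H2 zinc fingers, which are mostly encoded in 1 long last exon, and the KRAB domain recruits the corepressor TRIM28 (KAP1) to silence chromatin, above all at transposable elements. The clusters arose by repeated tandem duplication, so neighbouring genes can share near-identical stretches, and the labels do not state how reads that map to several places were treated.

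The annotation at hand is on GRCh38 and was not mixed with hg19 positions, so sites and windows are given by position and carry no gene name, exon or UTR. Gene order alone was read from RefSeq's GRCh38.p14 table. Of the last 100 protein-coding genes of chromosome 19, 64 had a symbol beginning with ZNF, ZSCAN or ZIM, against 259 of all 1451 protein-coding genes of the chromosome (17.8%). Of the last 200, 82 (41.0%) had such a symbol, and 31 belonged to the LILR, KIR, LAIR, NLRP, SIGLEC or VN1R families of receptors and sensors. TRIM28 itself was among the last 100. Which of these genes fall inside the hg19 limits of the region was not determined, so the label of zinc finger clusters rests on gene order and general knowledge, and not on the sites.

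HuR sites were denser in distal 19q13.4 than over the rest of chromosome 19 in every replicate. Replicate 1 had 151 sites per Mb in the region and 100.4 per Mb in the rest of the chromosome, replicate 2 had 254 and 180.02, and replicate 3 had 346 and 234. The ratio was 1.46 ± 0.0464 (SD, n = 3) and above 1 in 3 of 3 replicates. The region makes up 11.5% of the chromosome's length and held 16.1% ± 0.428 of its sites (SD, n = 3). With 3 replicates, the smallest p that exact two-sided sign flipping allows is 0.25, and none is printed for this or the other comparisons over replicates. The rest of the chromosome includes 1 stretch of 3.61 Mb without any combined site, chr19:24347631-27957740, and without it the ratio was 1.36 ± 0.0432 (SD, n = 3). Transcript abundance and gene content were not corrected for, and their part in the difference was not tested.

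The difference was larger in bases than in sites. Called sequence amounted to 8.34, 19.1 and 23.1 kb per Mb in the region in replicates 1, 2 and 3, against 4.91, 12.1 and 14.4 kb per Mb in the rest of the chromosome in the same order. The ratio was 1.63 ± 0.0604 (SD, n = 3). Bases called on the same strand in all 3 replicates numbered 50805 in the region, or 7.44 kb per Mb, and 4.30 kb per Mb in the rest of the chromosome, a ratio of 1.73. Without the 10 windows of 10 kb that held the most such bases, this last ratio was 1.16 and the site density ratio was 1.27 ± 0.0742 (SD, n = 3). Taking out the region's densest windows lowers both ratios by construction, since nothing was taken from the rest of the chromosome.

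**Figure D1:**
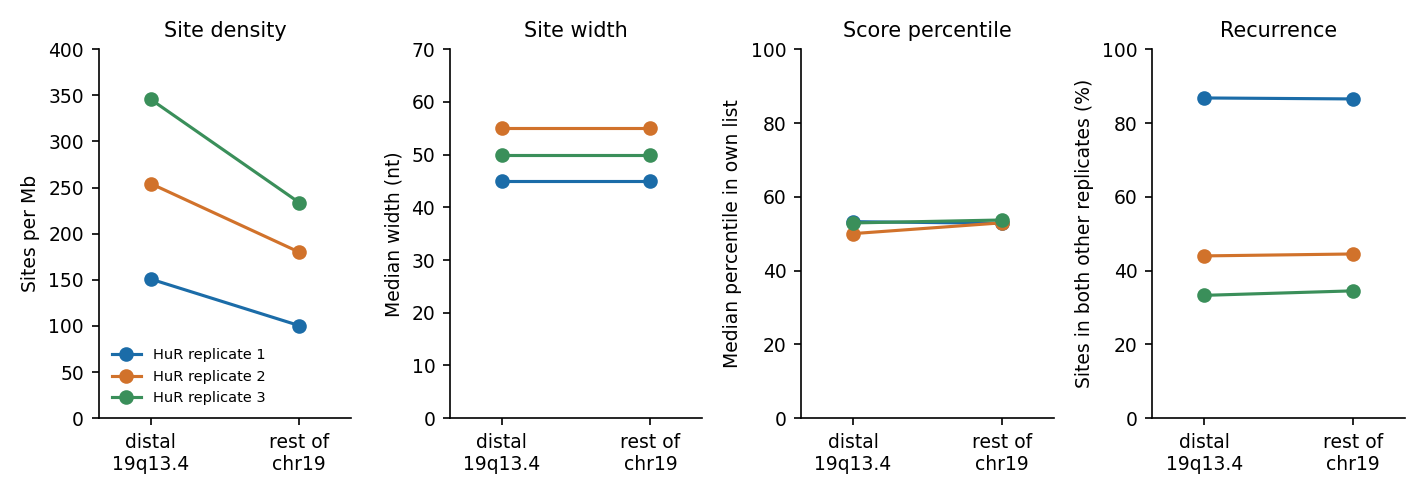
Site density (sites per Mb), median width (nt), median score percentile and recurrence (% of sites that overlap a site in both other replicates) for distal 19q13.4 on the left of each panel and the rest of chromosome 19 on the right. Each point is 1 HuR replicate, joined by a line. The density lines slope down from the region to the rest in all 3 replicates, while the other 3 measures lie nearly level.

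The median width and score of the region's sites differed from those elsewhere on the chromosome by no more than the spread between replicates. The median width was 45, 55 and 50 nt in replicates 1, 2 and 3, and it was the same in the rest of the chromosome in each. The median score percentile was 53.3, 50.03 and 52.9 in the region and 52.8, 52.9 and 53.7 in the rest, a difference of -1.09 ± 1.70 points (SD, n = 3), which is smaller than its own spread. Sites above percentile 90 of their list made up 12.3% ± 0.768 of the region's sites and 12.4% ± 1.49 of those in the rest (SD, n = 3 each).

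The edges of the distributions did differ. Sites over 100 nt made up 6.80%, 15.1% and 12.2% of the region's sites in replicates 1, 2 and 3, against 3.75%, 12.5% and 10.5% of those in the rest, a difference of 2.43 ± 0.733 points (SD, n = 3). These wide sites held 21.0%, 40.9% and 34.3% of the called bases in the region and 10.5%, 30.6% and 27.7% in the rest. With the region's 10 leading windows left out the difference was -0.871 ± 0.403 points (SD, n = 3). Those windows were picked for their called bases, which favours wide sites, and nothing was taken from the rest of the chromosome, so this value is pushed down by construction and does not show where the excess lies. The widest site of replicate 2 in the region ran over 2630 nt, chr19:57766461-57769090 on the plus strand, while its widest site in the rest of the chromosome ran over 935 nt. In replicate 3 the widest was 1130 nt, chr19:57806421-57807550 on the plus strand, and in replicate 1 it was 500 nt, chr19:57808211-57808710 on the plus strand. All 3 lie within 50 kb of one another.

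Low-scoring sites were also more common in the region. Sites below percentile 10 of their list by score made up 11.0%, 14.4% and 14.1% of the region's sites in replicates 1, 2 and 3, and 9.28%, 10.2% and 11.0% of those in the rest of the chromosome. The difference of 3.01 ± 1.24 points (SD, n = 3) was positive in 3 of 3 replicates. Without the region's 10 leading windows it was 1.08 ± 0.887 points (SD, n = 3), with nothing taken from the rest. Much of the difference thus went with those few windows. At LOD above 2 the difference was 1.08 ± 0.817 points (SD, n = 3). That cutoff acts on the same score that defines these sites, so it is no independent check.

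Sites of the region recurred between replicates about as often as other sites of the chromosome. A site counted as recurrent when it overlapped a same-strand site in both other replicates by at least 1 nt. In replicate 1 this held for 894 of 1030 sites (86.8%), against 86.5% in the rest of chromosome 19 and 89.1% over all chromosomes. In replicate 2 it held for 764 of 1737 (44.0%), against 44.5% and 37.8%, and in replicate 3 for 786 of 2361 (33.3%), against 34.5% and 28.4%. The difference from the rest of the chromosome was -0.491 ± 0.741 points (SD, n = 3), below 0 in 2 replicates and above 0 in 1. These shares lie near those of the rest of chromosome 19, and less near those over all chromosomes, and are no result about the region. The shares run opposite to the length of the 3 lists, the shortest having the highest.

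Recurrence was highest in the top score quartile, in the region and in the rest of the chromosome, but did not climb at every step. In the top score quartile 98.9%, 84.4% and 62.4% of the region's sites recurred in replicates 1, 2 and 3, against 98.5%, 82.8% and 64.3% in the rest. In the second quartile the shares were 86.7%, 21.4% and 15.1% in the region and 83.4%, 21.8% and 14.9% in the rest, and in the lowest 68.2%, 20.3% and 18.3% in the region and 69.5%, 22.2% and 19.5% in the rest. Replicate 3 thus had its lowest share in the second quartile, in both parts of the chromosome. With the rest of the chromosome weighted to the region's mix of scores and widths, the difference in overall recurrence was -1.08 ± 1.15 points (SD, n = 3).

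**Figure D2:**
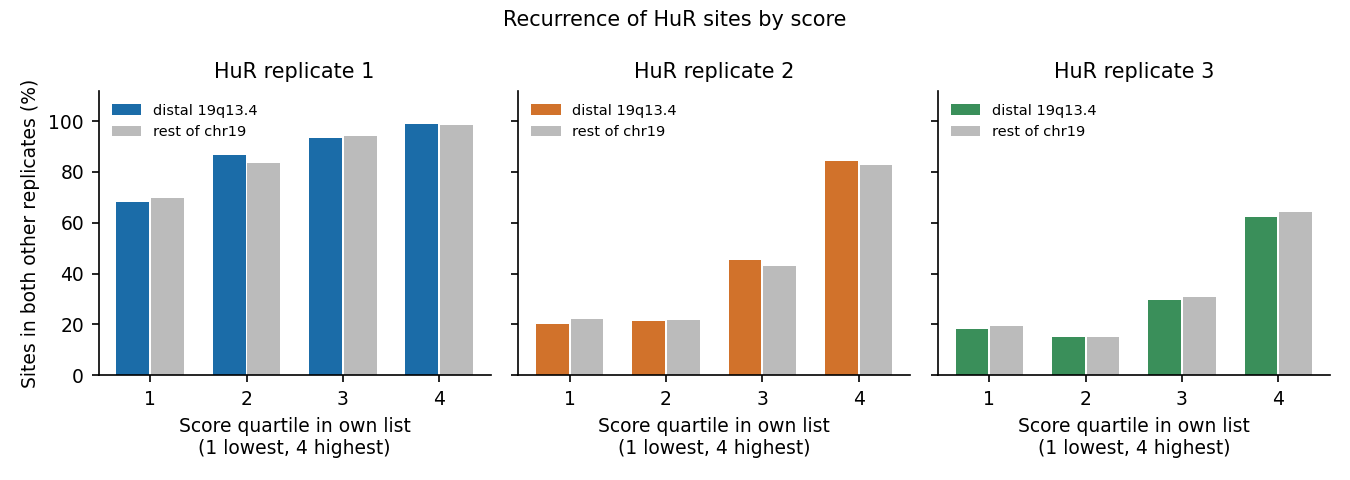
Share of sites (%) that overlap a site in both other HuR replicates, by score quartile within the replicate's own list, for distal 19q13.4 (coloured bars) beside the rest of chromosome 19 (grey bars). Each panel is 1 replicate with no error bar. The coloured and grey bars are of similar height in every quartile, from 98.9% and 98.5% in the top quartile of replicate 1 to 18.3% and 19.5% in the lowest of replicate 3.

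Scores of sites shared by a pair of replicates were correlated within the region. Across 928 replicate 1 sites that overlapped a replicate 2 site, Pearson's r came to 0.519 and Spearman's rho to 0.508, against 0.576 and 0.551 in the rest of the chromosome. Across 940 sites of replicates 1 and 3, r was 0.520 and rho 0.479, against 0.535 and 0.504. Across 1487 sites of replicates 2 and 3, r was 0.673 and rho 0.641, against 0.709 and 0.681. These are descriptions across sites, which share transcripts and a lysate pool, and every pair had the lower coefficient in the region.

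In the combined list, 740 of the region's 2826 sites (26.2%, 95% Wilson interval 24.6 to 27.8, counting error only) overlapped a site in all 3 replicate lists, against 28.1% in the rest of the chromosome and 22.9% over all chromosomes. A further 752 sites (26.6%) overlapped 2 lists, 985 (34.9%) overlapped 1 and 349 (12.3%) overlapped none. The shares in the rest of the chromosome were 27.9%, 33.7% and 10.3% in the same order. For the region's sites in all 3 lists the median LOD was 11.3 and the median width 90 nt. Elsewhere on the chromosome these values were 11.5 and 85 nt. Sites in no list had a lower median LOD in the region, at 1.56, than in the rest, at 3.05. Their median width was 25 nt in both. Of the region's 985 sites in a single list, 755 (76.6%) were in that of replicate 3, the longest list. The share was 75.9% in the rest of the chromosome, so it does not set the region apart.

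The share of the region's sites that the authors' p filter kept was near that over all chromosomes and below that of the rest of chromosome 19. A combined site counted as kept when a p-filtered interval overlapped it by at least 1 nt. The intervals of the 2 lists differ, the widest in the region being 2690 nt in the combined list and 445 nt in the p-filtered one. In the rest of the chromosome the widest were 1530 and 620 nt in the same order. An interval of the p-filtered list overlapped 1471 of the 2826 combined sites (52.1%, 95% Wilson interval 50.2 to 53.9, counting error only). The share was 55.4% in the rest of chromosome 19 and 52.3% over all chromosomes. Of the region's sites in 3, 2, 1 and 0 replicate lists, the filter kept 98.4%, 66.8%, 22.5% and 5.44%. The corresponding shares in the rest of the chromosome were 98.0%, 68.1%, 23.4% and 9.48%. There is 1 combined list, so these differences have no replicate check. The share in the rest of chromosome 19 lay outside the region's interval, which covers counting error only. A share so near that over all chromosomes is not read as a result about the region.

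Density was far from even along the region. In 500-kb bins counted from the proximal end, the mean over replicates ran between 31.3 and 682 sites per Mb over the 13 full bins, with a median of 228. The 104 bins of the same size in the rest of chromosome 19 ran between 0 and 863, with a median of 120. Across the 14 bins of the region, the last of them 329 kb long, densities of replicates 1 and 2 had a Pearson's r of 0.950, those of replicates 1 and 3 an r of 0.884 and those of replicates 2 and 3 an r of 0.975, as a description of bins that share their transcripts.

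Both ends of the region were dense and the middle was sparse. The 4 bins of chr19:52300001-54300000 were above the mean density of the rest of the chromosome in all 3 replicates. The first of them, chr19:52300001-52800000, had 180, 444 and 610 sites per Mb in replicates 1, 2 and 3, which is 2.29 ± 0.436 times the density of the rest (SD, n = 3). The next 5 bins, chr19:54300001-56800000, were below it in all 3 replicates. Among these, chr19:54800001-55300000 had 54, 48 and 80 sites per Mb, a ratio of 0.382 ± 0.140. The emptiest bin, chr19:56300001-56800000, had 18, 30 and 46 sites per Mb, a ratio of 0.181 ± 0.0151, and 245 nt called in all 3 replicates. The last 5 bins, chr19:56800001-59128983, were again above the rest of the chromosome in all 3 replicates.

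The densest bin was chr19:57800001-58300000, with 246, 364 and 413 sites in replicates 1, 2 and 3. Its density was 4.90, 4.04 and 3.53 times that of the rest of the chromosome, a mean of 4.16 ± 0.691 (SD, n = 3). It held 15865 nt called in all 3 replicates, which is 31.2% of such bases in the region, and more than the 11230 nt of the fullest bin in the rest of chromosome 19. The next densest, chr19:58300001-58800000, reached 2.71 ± 0.107 times the density of the rest and held 10.6% of the region's bases in all 3 replicates.

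**Figure D3:**
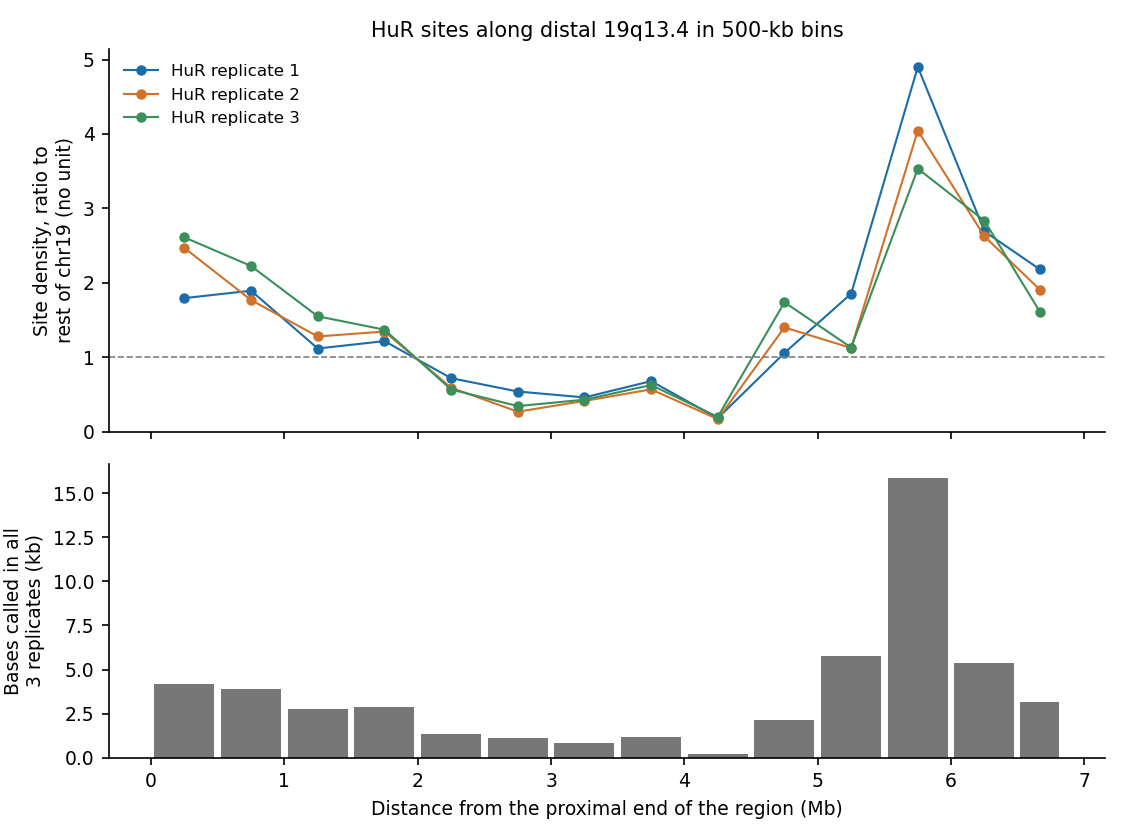
Upper panel: site density of each HuR replicate in 500-kb bins of distal 19q13.4, as a ratio to that replicate's density in the rest of chromosome 19 (dashed line at 1), against distance from the proximal end in Mb. Lower panel: bases called in all 3 replicates per bin, in kb. All 3 replicates dip below 1 in the same 5 bins and peak in the same bin, at 4.90, 4.04 and 3.53, where the bar reaches 15.9 kb.

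Stretches without any combined site on either strand were shorter than the longest of the rest of the chromosome. The rest is 52.3 Mb long and the region 6.83 Mb, so length alone favours a longer maximum in the rest. The longest in the region was chr19:55181421-55399900, at 218 kb, followed by chr19:56320526-56499585 at 179 kb and chr19:57509091-57645635 at 137 kb. In the rest of the chromosome the longest measured 3610 kb, as given above, and the next 524 kb.

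Strand changed in blocks along the region, alike in all replicates. The plus strand carried 67.0%, 64.9% and 60.3% of the region's sites in replicates 1, 2 and 3. Its share in the rest of the chromosome was 54.8%, 55.1% and 54.3%, a difference of 9.30 ± 3.14 points (SD, n = 3). Without the region's 10 leading windows the difference was 6.40 ± 2.07 points (SD, n = 3), with nothing taken from the rest. By bin, the plus share ran between 7.92% ± 2.46 in chr19:53300001-53800000 and 96.9% ± 1.37 in the bin directly after it, chr19:53800001-54300000 (SD, n = 3 each). In the densest bin it was 83.7% ± 1.72, and in the bin after that 55.2% ± 1.29 (SD, n = 3 each). A transcript's fragments all carry its own strand, with or without HuR, and the part of gene orientation and transcript abundance in these blocks was not tested.

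**Figure D4:**
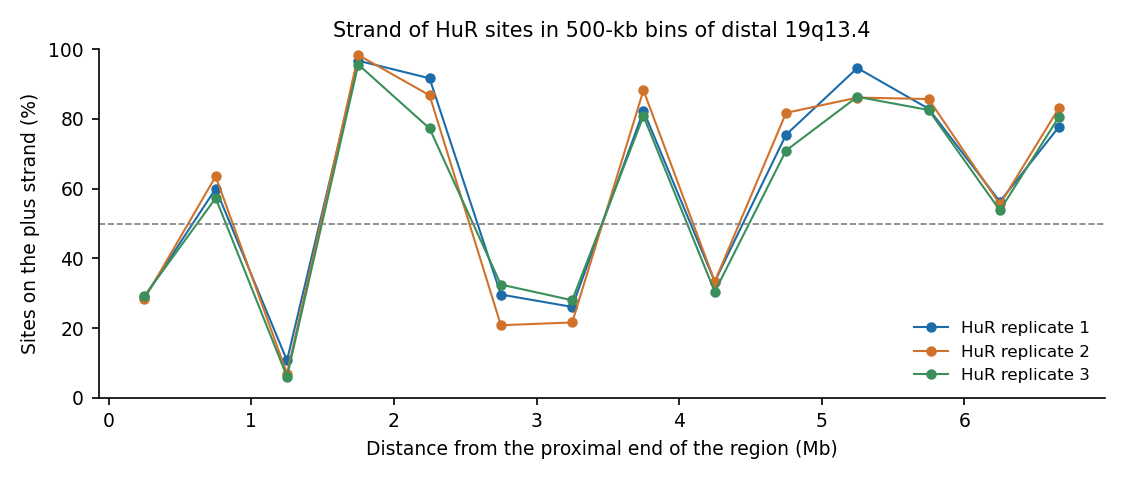
Share of sites on the plus strand (%) in 500-kb bins of distal 19q13.4, against distance from the proximal end in Mb, with 1 line per HuR replicate and a dashed line at 50%. The lines of the 3 replicates run close together and swing between 7.92% in the third bin and 96.9% in the fourth, as means over replicates.

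Neighbouring sites mostly shared a strand, as elsewhere on the chromosome. Of 109 windows of 10 kb with at least 10 combined sites, 92 (84.4%, 95% Wilson interval 76.4 to 90.0, counting error only) had at least 90% of their sites on 1 strand, against 427 of 510 (83.7%) in the rest, and the sign of this small difference turned with other window sizes. Sites that overlapped a site on the opposite strand were rare, with 0, 4 and 14 in replicates 1, 2 and 3. These were 0%, 0.230% and 0.593% of the region's sites, against 0.229%, 0.287% and 0.605% in the rest. The median gap to the next site on the same strand was 725, 510 and 460 nt in the region and 930, 505 and 450 nt in the rest of the chromosome in the same order, so sites stood closer in the region in replicate 1 but not in replicates 2 and 3.

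Counted in sites, the density of the region came with more occupied windows, and not with fuller ones. Counted by strand, a 10-kb window that held any site held 3.36, 4.57 and 5.16 sites in the region in replicates 1, 2 and 3, against 3.26, 4.59 and 4.98 in the rest, a ratio of 1.02 ± 0.0205 (SD, n = 3). Windows that held at least 1 base shared by all 3 replicates numbered 271 in the region, of 1702 on the chromosome (15.9%), and the median such window held 80 nt both in the region and in the rest. At the upper end, 7 of the 271 windows (2.58%) held over 1000 nt, against 1.47% of the windows in the rest of chromosome 19 and 1.51% over all chromosomes. In bases, the region's 271 windows held 18.4% of those called in all 3 replicates on the chromosome, above their 15.9% share of windows. Of the 17 windows that form the top 1% of the chromosome, 5 (29.4%) lay in the region.

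These 5 windows lay close together on the plus strand. The fullest was chr19:57800001-57810000 where 3545 nt, 35.5% of the window, were called in all 3 replicates, and it ranked first on the chromosome and first over all chromosomes. Replicate 1 called 3645 nt there, replicate 2 called 5255 nt and replicate 3 called 4840 nt, so nearly all of the replicate 1 sequence was shared. The adjoining chr19:57810001-57820000 held 2625 nt and ranked seventh over all chromosomes. Then came chr19:57840001-57850000 with 2270 nt, chr19:57760001-57770000 with 2215 nt and chr19:57720001-57730000 with 1805 nt, at ranks 15, 19 and 75 over all chromosomes. The 5 windows lie within chr19:57720001-57850000, a stretch of 130 kb marked out after these values were seen.

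This stretch makes up 1.90% of the region's length and held 13995 nt called in all 3 replicates on the plus strand, which is 27.5% of such bases in the region, and 115 nt on the minus strand. It had 175, 168 and 184 plus-strand sites in replicates 1, 2 and 3 and 4, 11 and 10 minus-strand sites. Its sites made up 17.4% of the region's sites in replicate 1, 10.3% in replicate 2 and 8.22% in replicate 3, so the shorter the list, the larger the share. The sites were dense but not especially high in score, with median percentiles of 57.6, 50.8 and 43.3 in replicates 1, 2 and 3.

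The other 5 of the 10 fullest windows were spread more widely. On the minus strand, chr19:57980001-57990000 held 1225 nt and chr19:58050001-58060000 held 620 nt, as did chr19:53300001-53310000, the only one of the 10 in the proximal part of the region. On the plus strand, chr19:58370001-58380000 held 1070 nt and chr19:57770001-57780000 held 910 nt. Together the 10 windows held 33.3% of the region's bases in all 3 replicates. In the last-named window the sites stood low in every list, with median percentiles of 17.7, 10.8 and 7.21 in replicates 1, 2 and 3.

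**Figure D5:**
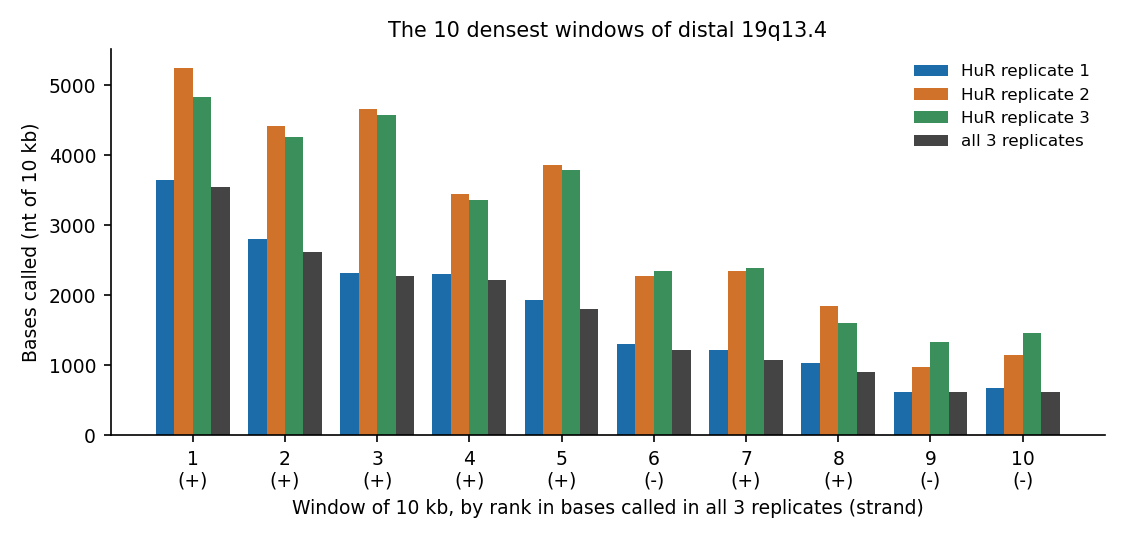
Bases called (nt of 10 kb) in the 10 windows of distal 19q13.4 with the most bases called in all 3 HuR replicates, in rank order with the strand in brackets. Coloured bars give each replicate and dark bars the bases called in all 3, without error bars. In each window the dark bar is close to that of replicate 1, as in the first window with 3545 nt in all 3 and 3645 nt in replicate 1, while replicates 2 and 3 are higher.

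Bases called in all 3 replicates formed long runs in this part of the region. Joined over gaps of up to 1 kb on a strand, they gave 416 runs in the region, of which 19 (4.57%) spanned over 2 kb, against 5.08% of 2246 runs in the rest of the chromosome. Those 19 runs held 38.1% of the region's bases in all 3 replicates, against 30.8% for the long runs of the rest. Of the 114 long runs of the rest, 56 were on the plus strand, against 14 of the 19 in the region. The longest, chr19:57803686-57812910 on the plus strand, spanned 9225 nt, of which 52.1% was called in all 3 replicates in 37 separate segments. The next were chr19:57840826-57849335 with 8510 nt and 26.7% called, and chr19:57766201-57772840 with 6640 nt and 45.7% called, both on the plus strand. The longest run of the rest of the chromosome, chr19:30508526-30526940, was longer at 18415 nt but only 15.9% of it was called in all 3 replicates.

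Among sites found in all 3 replicates, the highest combined LOD was 22.3 at chr19:52495186-52495255 on the minus strand, a site of 70 nt that ranked 11th on the chromosome and 399th over all chromosomes. Its replicate scores stood at percentiles 91.9, 99.8 and 99.9 in replicates 1, 2 and 3. The next were chr19:55783426-55783490 on the minus strand with a LOD of 20.1, in the sparse middle of the region, chr19:53063191-53063300 on the plus strand with 20.02 and chr19:57939756-57939820 on the plus strand with 19.9. The fifth, chr19:53996606-53996880 on the plus strand, was also the widest of the 10 at 275 nt.

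Of these 10 sites, 6 were on the plus strand, and all 10 were kept by the p filter, which kept 98.4% of the region's sites in 3 lists. The 10 fullest windows held 2 of them, chr19:57729136-57729190 and chr19:57848101-57848350, both on the plus strand, beside 100 of the 740 region sites in all 3 lists (13.5%) and 235 of all 2826 combined sites (8.32%). A count of 2 in 10 is too small to set apart from those shares. The second-highest combined LOD of the region, 21.9, belonged to a minus-strand site found in 2 lists, chr19:58984776-58984805, which the p filter did not keep. The replicates did not rank all of the 10 sites alike. At chr19:53591766-53591820 on the minus strand, with a combined LOD of 19.3, the replicate 1 score stood at percentile 66.4, against 97.8 and 99.9 in replicates 2 and 3. At chr19:58905066-58905165 on the plus strand, with 19.2, the percentiles were 95.6, 99.5 and 98.7.

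The KRAB zinc finger stretch at 19p12, taken as chr19:20000001-24000000, was denser than distal 19q13.4. The region had 250 ± 97.5 sites per Mb and the 19p12 stretch 317 ± 131 (SD, n = 3 each), a ratio of 0.803 ± 0.0719 (SD, n = 3) that was below 1 in 3 of 3 replicates. Per occupied window the contrast was larger, with 4.36 ± 0.918 sites in the region and 8.50 ± 1.88 at 19p12 (SD, n = 3 each), a ratio of 0.514 ± 0.0232 (SD, n = 3). Bases called in all 3 replicates came to 7.44 and 8.05 kb per Mb. The median score percentile differed by -4.63 ± 3.82 points (SD, n = 3) and was lower in distal 19q13.4 in 3 of 3 replicates. Recurrence differed by 0.545 ± 4.87 points (SD, n = 3), less than its own spread.

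Against the gene-dense first 20 Mb of the chromosome (19p13), distal 19q13.4 had 1.57 ± 0.0648 times the sites per Mb and 1.28 ± 0.0610 times the sites per occupied window (SD, n = 3 each), both above 1 in 3 of 3 replicates. The medians of width were equal, and the score percentile differed by 0.661 ± 1.10 points (SD, n = 3), less than its own spread.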

How the data were processed

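Titles in the labels assign the samples to 3 HuR immunoprecipitations and 3 serum controls from HEK293 and give their numbers. The submitters' processing notes name cutadapt 1.0, TopHat2 2.0.8 and the build hg19. Each deposited list gives the authors' LOD score per interval, and the labels do not describe how intervals were called or scored. All scores were above 0 and all ends lay on a grid of 5 nt. No read counts were analysed, so depth is unknown.

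Sites wholly inside the region were set beside those of chr19:1-52300000 in Python 3.11.15 (scipy 1.17.1, pandas 2.3.3, numpy 2.4.6). Percentiles are mid-ranks within a whole list. Overlaps are on the same strand, by at least 1 nt. Windows of 10 kb were counted by strand from position 1, and windows with no called base were left out. Length is chromosome length, gaps included. Coordinates are 1-based. Named windows are the 10 with the most bases in all 3 replicates, and named sites the 10 highest combined scores found in all 3, together with the densest and emptiest bin and the 3 longest runs. Widest sites, gaps, the 130-kb stretch and the shares of wide, low-scoring and plus-strand sites were added after seeing the data. The members and measures were chosen with earlier results of these data known. The comparison by gene group was not run, for want of an hg19 annotation. The code was run on 18000 simulated sites, spaced apart and detected independently, unlike the clustered sites of the lists. The largest departure from the set values was 1.40 points in recurrence and 0.0464 in the density ratio. These values check the code and do not measure the error of the results above.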

Additional observations from a re-analysis of the deposited data

How the results depend on the processing

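Across 16 results, 129 alternative values were computed, of which 87 stayed inside the limit for "unmoved", 22 lay outside it and 20 fell on the other side of no difference. The limit was 1 SD over replicates, 1.5-fold for the leading window and for bases in all 3 replicates, and the half-width of a 95% interval for the single shares. It was 0 for median width, so any move counted. For bases in all 3 replicates it was wide. The ratio of 1.73 fell to 1.16 without the 10 leading windows and still counted as unmoved. The density ratio stayed above 1 except against 19p12, and ranged from 1.45 to 1.49 without each replicate in turn.

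At LOD above 1 the median width difference was 1.67 nt and the difference in sites above percentile 90 was 0.0894 points. At LOD above 2 the values were 3.33 nt and 0.244 points, with 1.08 points for sites below percentile 10, 0.894 for the median percentile and 0.0256 for recurrence. With at least 50% of each interval shared the recurrence difference was -3.89 points. With lists limited to equal length the width difference was 1.67 nt. Without the longest empty stretch the density ratio was 1.36 for sites and 1.52 for bases. Set against 19p12, the ratio was 0.803 for sites, 0.802 for bases, 0.514 for sites per occupied window and 0.924 for bases in all 3 replicates. The differences from 19p12 were -3.33 nt in width, -4.63 in percentile, 0.545 in recurrence, -5.50 in the share that passed the p filter and -7.60 in one-strand windows. Set against 19p13, the ratios were 1.57 for sites, 1.85 for bases and 1.28 for sites per occupied window, and the differences 0.661 in percentile, -2.22 in recurrence and -3.85 in combined sites found in 3 lists. Without the 10 leading windows, which lowers the density and the share of wide sites by construction, the density ratio was 1.27, and the differences were -2.26 points in recurrence, -0.871 in sites over 100 nt, 1.08 in sites below percentile 10 and -0.941 in sites above percentile 90. The one-strand difference was -2.84 with windows shifted by 5 kb, -3.88 with 5-kb windows, -1.31 with 20-kb windows and -1.53 in the p-filtered list. With 20-kb windows the leading window held 6170 nt, being longer, and the ratio per occupied window was 1.05. The p-filtered list gave a percentile difference of 0.617. Against the rest of the chromosome from 28 Mb on, a comparison chosen after seeing the data, recurrence differed by 0.517 points. Without each replicate in turn, the recurrence difference ranged from -1.62 to 0.187 points, the positive value without replicate 2, and that in sites above percentile 90 from -0.322 to 0.374, the positive value without replicate 3. For the other moves the cause was not tested. Unknown depth limits any statement on missing sites. No paired analysis was possible because no list of a serum sample is among the files used here, while region and rest were compared within each replicate.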
